A study of Rattus norvegicus with 24 samples.

Results

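Endothelial cells line every blood vessel of the heart, and 7 genes that mark them were followed in rat hearts after weekly intratracheal instillation of zinc-rich particles, their soluble components, zinc alone, ash, or saline. The members were all probe sets of the array that its annotation assigns only to Pecam1, Vwf, Nos3, Kdr, Flt1, Tek, or Car4. These were 8 probe sets of 6 genes among the 15866 tested probe sets: 1 each for Pecam1, Vwf, Nos3, Kdr, and Car4, and 3 for Flt1. The 6 genes are among 10411 that have a probe set naming only them, and the Flt1 probe sets are called Flt1a, Flt1b, and Flt1c here, from the brightest to the dimmest. Tek, which encodes the angiopoietin receptor Tie2, had no probe set matched and was not analysed here.

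RNA from the left ventricle and septum of young adult male Wistar Kyoto rats was hybridized to 24 Affymetrix Rat 230A arrays, 1 rat per array, with 4 rats in each of 6 groups. MSH rats received Mount St. Helens ash, which has no water-soluble metals. PM-HD rats received the whole suspension of oil combustion particles, labelled with 14.5 μg/mg of soluble zinc and 3.0 μg/mg of nickel, and PM-LD rats the same particles at a lower dose, labelled with 7.25 and 1.5 μg/mg. PM-L rats received the filtered leachate of the particles without solids, zinc sulfate rats a solution whose label gives 14.5 μg/ml and whose treatment protocol gives 33.4 μg of zinc per ml, and saline rats the vehicle. All groups, saline included, were instilled once a week under halothane anesthesia. The MSH, PM-HD, zinc sulfate, and saline arrays come from the shorter of the study's exposure periods. In the paper's design, the protocol value for zinc sulfate belongs to the longer period. Exposed rats of the shorter period received a higher weekly dose, so neither the label nor the protocol value was taken as the dose of the zinc sulfate hearts. The sources used here do not give the number of weeks for the PM-LD and PM-L arrays. The values are signals of Microarray Suite 5.0 (MAS5), in linear units, with every array scaled to the same trimmed mean.

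Pecam1 encodes CD31, an adhesion molecule of endothelial junctions, and Vwf encodes von Willebrand factor, the glycoprotein that endothelium stores and releases to capture platelets. Nos3 encodes endothelial nitric oxide synthase, whose product relaxes vascular smooth muscle. Kdr and Flt1 encode the receptors VEGFR2 and VEGFR1 for vascular endothelial growth factor (VEGF): the first carries most of the growth signal, and the second binds the ligand tightly and also occurs in a soluble form that sequesters it. Car4 encodes carbonic anhydrase IV, an enzyme anchored to the luminal face of capillary endothelium, where it interconverts carbon dioxide and bicarbonate. In a piece of ventricle, fewer endothelial cells and less RNA per endothelial cell cannot be told apart by any of these signals.

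The promoters of 4 of the 7 genes are shown, and none was matched for Pecam1, Vwf, and Tek. The part of these sequences in the members' signals was not tested. In the assembly used, GRCr8, Pecam1 lies on chromosome 10 and Vwf on chromosome 4. The promoters run from 250 bases before to 50 bases after 1 transcription start in RefSeq, 5′ to 3′ on the gene's strand: Nos3 at chr4:11706532-11706831 (minus strand), Kdr at chr14:32571813-32572112 (plus strand), Flt1 at chr12:12333180-12333479 (plus strand), and Car4 at chr10:70325108-70325407 (plus strand). As annotated, the Flt1 gene starts at 12333050 and the Car4 gene at 70325102, so these windows lie inside the genes. Other starts were not examined. Capitals mark GGAA on either strand (TTCC where it lies on the other strand), the core of the sites bound by ETS transcription factors, a family that many endothelial genes depend on.
Nos3: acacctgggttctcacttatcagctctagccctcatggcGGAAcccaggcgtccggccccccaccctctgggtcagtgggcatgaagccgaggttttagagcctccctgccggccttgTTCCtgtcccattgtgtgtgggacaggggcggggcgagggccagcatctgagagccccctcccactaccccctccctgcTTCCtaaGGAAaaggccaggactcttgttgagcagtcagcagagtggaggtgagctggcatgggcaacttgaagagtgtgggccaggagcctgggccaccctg
Kdr: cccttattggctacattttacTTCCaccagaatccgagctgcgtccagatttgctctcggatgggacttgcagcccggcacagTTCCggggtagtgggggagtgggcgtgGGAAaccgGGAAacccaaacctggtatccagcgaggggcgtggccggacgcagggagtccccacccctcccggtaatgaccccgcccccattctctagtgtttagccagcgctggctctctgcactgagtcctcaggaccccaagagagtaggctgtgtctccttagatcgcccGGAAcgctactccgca
Flt1: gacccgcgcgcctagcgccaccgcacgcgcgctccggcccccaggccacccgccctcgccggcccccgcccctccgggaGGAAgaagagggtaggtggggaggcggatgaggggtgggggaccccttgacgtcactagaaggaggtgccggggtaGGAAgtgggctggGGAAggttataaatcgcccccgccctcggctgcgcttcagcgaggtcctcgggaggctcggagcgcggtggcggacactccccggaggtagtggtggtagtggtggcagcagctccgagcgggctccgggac
Car4: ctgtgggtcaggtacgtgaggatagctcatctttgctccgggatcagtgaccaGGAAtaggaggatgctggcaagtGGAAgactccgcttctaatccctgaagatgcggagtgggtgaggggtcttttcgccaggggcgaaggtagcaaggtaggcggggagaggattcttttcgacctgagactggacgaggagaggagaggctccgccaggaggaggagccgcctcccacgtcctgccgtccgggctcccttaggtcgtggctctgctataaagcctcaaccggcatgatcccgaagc
The core occurred 4 times in the Nos3 promoter, 5 times in that of Kdr, 3 times in that of Flt1, and 2 times in that of Car4. It is found at least once in 95.8% of the 33469 promoters of the same length, with a median of 3, so its presence sets no member apart. GGGCGG, the core of a GC box, occurred 1 time in Nos3, 1 time in Kdr, and 3 times in Flt1, with no match in Car4, and 33.1% of all promoters hold it. TATAAA occurred 1 time each in Flt1 and Car4, with no match in Nos3 and Kdr, and 14.2% of all promoters hold it. CACGTG had no match in these windows and was found in 6.42% of all promoters. Both strands were searched, 0 matches of different motifs overlapped in these 4 windows, and a match describes letters and not a bound site.

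The median signal of an array was between 206.1 and 278.3. The Gapdh ratio, the signal of its 3′ control probe set over that of its 5′ one, which climbs where RNA is degraded or copied short (these cannot be told apart here, and the methods describe a ribosomal RNA check that all samples met), lay between 1.11 and 5.62 and exceeded 3 on 9 of 24 arrays: 2 each of MSH, PM-HD, and PM-L, and 1 each of PM-LD, zinc sulfate, and saline. The mean log2 signal of 4 atrial transcripts lay between 7.81 and 13.15, and was above 11 in MSH replicate 1, PM-LD replicate 2, PM-L replicates 2 and 4, zinc sulfate replicate 2, and saline replicate 1. The mean log2 signal of the members' probe sets stood between the 57.0th and the 97.8th percentile of all probe sets. Of 36 other endothelial marker genes, 29 had a probe set, and 10 of these were dim, with a mean signal below the lowest array median.

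Car4 had the largest rise against saline of the 8 member probe sets, with PM-HD. Its signal was 2742.1, 1885.3, 1221.9, and 2718.9 in the 4 PM-HD hearts, against 462.0, 745.8, 1074.9, and 995.5 in the 4 saline hearts. Every PM-HD heart lay above every saline heart, although the lowest PM-HD heart and the highest saline heart were close. In zinc sulfate hearts it was 1178.5, 503.8, 2752.6, and 762.3, and in MSH hearts 1409.7, 829.3, 802.0, and 1669.9, and both groups overlapped with saline. PM-LD hearts had 806.8, 694.3, 1485.5, and 960.5 and PM-L hearts 605.4, 705.5, 1286.3, and 1024.5, close to the saline values.

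On the log2 scale (signal plus 16, quantile normalized), Car4 was higher by 1.37 with PM-HD than with saline (standard error 0.45, limma p = 0.0088, exact permutation p = 0.0286, two-sided). This passed the thresholds of the study's methods, an unadjusted p under 0.05 with a rise or a fall of more than 25%. This was 1 of 8 member probe sets called in the comparison, where 3.67% of all probe sets were called, and adjusted over all probe sets the p was 0.999. The exact permutation p is the smallest that 4 against 4 rats allow, and 1.85% of all probe sets had no overlap between PM-HD and saline. The other fold changes of Car4 against saline were 0.52 with MSH, 0.48 with zinc sulfate (standard error 0.45 each), 0.30 with PM-LD, and 0.17 with PM-L (standard error 0.43 each), and none of these 4 passed. Ordered by mean signal, PM-HD (2142 ± 732, SD, n = 4) was followed by zinc sulfate (1299 ± 1008), MSH (1178 ± 432), PM-LD (987 ± 350), PM-L (905 ± 311), and saline (820 ± 277). Each group in this order overlapped with the next.

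The PM-HD difference in Car4 kept to its side of the thresholds in all 19 alternatives run, with fold changes between 1.13 and 1.60. The Gapdh ratio varied in both groups, with a median of 3.03 (1.48 to 4.81) in PM-HD and 1.87 (1.35 to 5.48) in saline. With the log2 ratio as a covariate the difference was 1.17, and without the arrays whose ratio exceeded 3, which left 2 PM-HD and 3 saline arrays, it was 1.60. Saline replicate 1, which had the lowest Car4 signal of that group, was also the saline heart with a high atrial mean. It had the highest summed signal of lung epithelial markers of all arrays as well. Without it the difference was 1.13.

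The dose of particles gave the only other contrast in which Car4 passed. It was higher by 1.07 in PM-HD than in PM-LD (standard error 0.43, limma p = 0.0199, adjusted p = 0.8996, exact permutation p = 0.0571, two-sided), and 1 of 8 member probe sets was called where 4.66% of all probe sets were. The groups overlapped, since PM-HD replicate 3 lay below PM-LD replicate 3. The call was lost without PM-HD replicate 1 (0.93), PM-HD replicate 4 (0.91), or PM-LD replicate 2 (0.93), and without the hearts of a high atrial mean (0.93). Between PM-HD and zinc sulfate the difference was 0.89 (standard error 0.45, limma p = 0.0695, adjusted p = 0.803, exact permutation p = 0.20, two-sided). Without zinc sulfate replicate 3 the difference was 1.36 and passed, where 14.6% of all probe sets did.

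**Figure D1:**
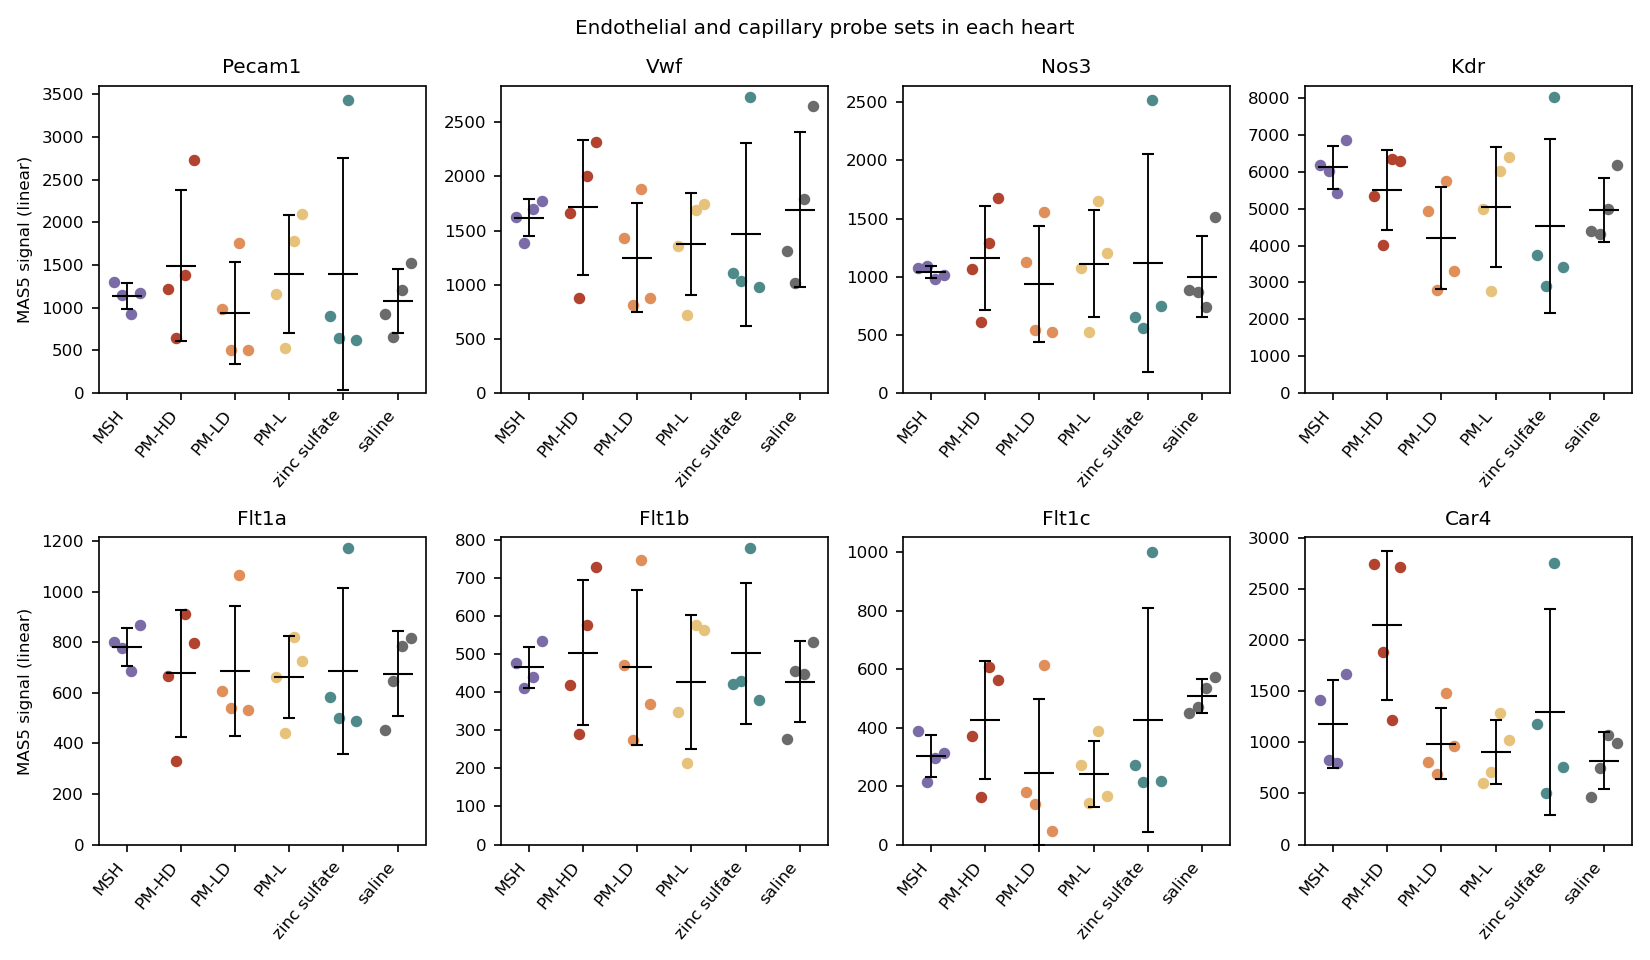
MAS5 signal (linear scale, from 0) of the 8 member probe sets in each of 24 hearts, by group, with the group mean and SD as bars (n = 4 rats; the lower bar of Flt1c in PM-LD is drawn to 0). Car4 has its highest mean in PM-HD (1221.9 to 2742.1), Flt1c has its highest mean and smallest SD in saline, and 1 zinc sulfate heart stands above the other 3 in every panel.

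Flt1 was read by 3 probe sets, and 1 of them passed the thresholds in some comparisons. Flt1c was the dimmest and, like the probe sets of Pecam1 and Vwf, was designed on an expressed sequence tag. It had signals of 181.2, 139.0, 615.9, and 45.5 in PM-LD hearts and 271.1, 143.6, 389.5, and 164.6 in PM-L hearts, against 449.0, 472.2, 535.9, and 574.0 in saline hearts. All 4 PM-L hearts and 3 of 4 PM-LD hearts lay below all saline hearts, whose values were within 1.28-fold of each other. MSH hearts, with 389.9, 213.3, 294.9, and 314.5, also lay below all saline hearts. PM-HD hearts (371.8, 162.7, 606.0, and 563.3) and zinc sulfate hearts (271.5, 215.3, 1000.6, and 216.9) overlapped with saline.

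Flt1c fell by 1.42 on the log2 scale with PM-LD (standard error 0.51, limma p = 0.0111, adjusted p = 0.999, exact permutation p = 0.143, two-sided). With PM-L it fell by 1.14 (standard error 0.51, limma p = 0.0360, adjusted p = 0.999, exact permutation p = 0.0286, two-sided). It was the 1 member probe set called of 8 in each comparison, where 4.11% and 4.25% of all probe sets were called for PM-LD and PM-L. No overlap between PM-L and saline was shared by 1.90% of all probe sets. The PM-LD call was lost without PM-LD replicate 4, the dimmest heart (fold change −0.91). The PM-L call was lost without PM-L replicate 2 (−0.99) or 4 (−0.98), and without saline replicate 2 (−1.16), 3 (−1.12), or 4 (−1.10). PM-L replicates 2 and 4 and saline replicate 1 were hearts with a high atrial mean, and without all such hearts the PM-L difference was −0.72 and did not pass.

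With MSH the fold change of Flt1c was −0.79 (standard error 0.41, limma p = 0.0739, exact permutation p = 0.0286, two-sided), and 0 of 8 member probe sets were called, where 3.57% of all probe sets were. The absence of overlap was shared by 3.07% of all probe sets in that comparison. With zinc sulfate it was −0.45 (standard error 0.41) and with PM-HD −0.39 (standard error 0.41), and neither passed. With the log2 Gapdh ratio as a covariate, Flt1c passed for MSH (−0.95) and PM-HD (−0.60) as well, and leaving out the arrays with a ratio above 3 gave −0.96 and −0.89. The difference between PM-HD and PM-LD was 1.03 (standard error 0.51, limma p = 0.0561, exact permutation p = 0.257, two-sided), that between zinc sulfate and MSH 0.34 (standard error 0.41), and that between PM-HD and zinc sulfate 0.06 (standard error 0.41).

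Flt1a and Flt1b passed in no comparison. Flt1a averaged 784 ± 75.2 in MSH, 678 ± 252 in PM-HD, 687 ± 256 in PM-LD, 662 ± 162 in PM-L, 687 ± 327 in zinc sulfate, and 677 ± 167 in saline hearts (SD, n = 4 each). Flt1b averaged 466 ± 53.6, 504 ± 191, 466 ± 204, 427 ± 176, and 503 ± 186 in the same 5 exposed groups and 429 ± 107 in saline. Their fold changes against saline lay between −0.07 and 0.26, and none passed. Over the 24 arrays these 2 probe sets correlated with r = 0.817, and Flt1c correlated with them at r = 0.621 and 0.564 (Spearman's rho = 0.773, 0.668, and 0.585; permutation p = 1e-05, 0.0014, and 0.0045 for r and 2e-05, 0.00054, and 0.0033 for rho; adjusted over the 3 pairs, the highest p was 0.0045). Without the 2 arrays farthest from the median of the brighter probe set of each pair, r was 0.775, 0.530, and 0.429. The sources used here do not give the part of the transcript that each probe set reads, and a difference between the probe sets in their response was not tested.

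Kdr, the main VEGF receptor, had 6187.8, 6015.0, 5419.6, and 6855.7 in MSH hearts and 3739.5, 2909.5, 8033.4, and 3426.7 in zinc sulfate hearts, against 4393.2, 4306.8, 4991.8, and 6190.0 in saline hearts. The MSH hearts were even and high, and 3 of the 4 zinc sulfate hearts were below all saline hearts while replicate 3 was above them. The fold change was 0.36 with MSH and −0.29 with zinc sulfate (standard error 0.32 each), and 0 of 8 member probe sets were called with zinc sulfate, where 4.46% of all probe sets were. Without zinc sulfate replicate 3, Kdr fell by 0.68 and Flt1c by 0.92 with zinc sulfate, and both then passed, where 8.29% of all probe sets did. In PM-HD hearts Kdr averaged 5499.5 ± 1091, in PM-LD 4199 ± 1387, and in PM-L 5039 ± 1629, against 4970.4 ± 868 in saline (SD, n = 4 each), with fold changes of 0.18 (standard error 0.32), −0.30, and 0.01 (standard error 0.37 each).

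Set against each other, zinc sulfate was lower than MSH for Kdr by a fold change of −0.65 (standard error 0.32, limma p = 0.0636, adjusted p = 0.716, exact permutation p = 0.143, two-sided). No member was called in that comparison, where 6.66% of all probe sets were. Without zinc sulfate replicate 3 it was −1.04 and passed, with a limma adjusted p of 0.167, the lowest of any member under the alternatives run, where 14.5% of all probe sets were called. Between PM-HD and zinc sulfate, Kdr differed by 0.47 (standard error 0.32), again with 0 of 8 called, where 5.51% of all probe sets were. Without zinc sulfate replicate 3, Kdr (0.86), Pecam1 (0.85), and Nos3 (0.71) passed in that comparison as well as Car4, but 14.6% of all probe sets were then called, against 5.51% with that heart. Between PM-HD and PM-LD, Kdr differed by 0.49 (standard error 0.37) and did not pass.

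Pecam1, the junctional adhesion molecule, varied widely from heart to heart. Its signal was 905.1, 640.6, 3426.6, and 625.0 in zinc sulfate hearts and 1223.4, 638.7, 1380.9, and 2727.7 in PM-HD hearts, against 921.0, 658.4, 1203.5, and 1527.7 in saline hearts. The zinc sulfate hearts alone spanned a 5.48-fold range, and the 4 MSH hearts only 1.40-fold (929.3 to 1303.4). PM-LD hearts lay between 500.1 and 1761.0 and PM-L hearts between 530.6 and 2092.5. All exposed groups overlapped with saline.

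Vwf had 1111.7, 1034.1, 2729.6, and 980.3 in zinc sulfate hearts and 1314.7, 1014.3, 1794.5, and 2647.9 in saline hearts. The other groups lay within the range of these 2 groups except at the low end, where PM-HD reached 873.5, PM-LD 813.0, and PM-L 717.8. Nos3 had 651.8, 559.8, 2522.5, and 747.6 in zinc sulfate hearts and 881.7, 866.7, 742.5, and 1511.4 in saline hearts, and the MSH hearts were within 1.11-fold of each other (982.6 to 1088.6). Across Pecam1, Vwf, Nos3, Flt1a, and Flt1b, the 25 fold changes against saline lay between −0.42 (Vwf with PM-LD) and 0.36 (Pecam1 with PM-HD), and none passed. The lowest limma p of the 25 was 0.297 (Vwf with PM-LD, exact permutation p = 0.343, two-sided). Over all 8 comparisons and 8 probe sets, 0 of 64 fold changes reached an adjusted p under 0.05 in limma and 4 had an unadjusted p under 0.05. Of all probe sets, 0.0126% reached the adjusted threshold with PM-L and none in the other 7 comparisons. An exact permutation p under 0.05 was found for 3 of the 64.

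**Figure D2:**
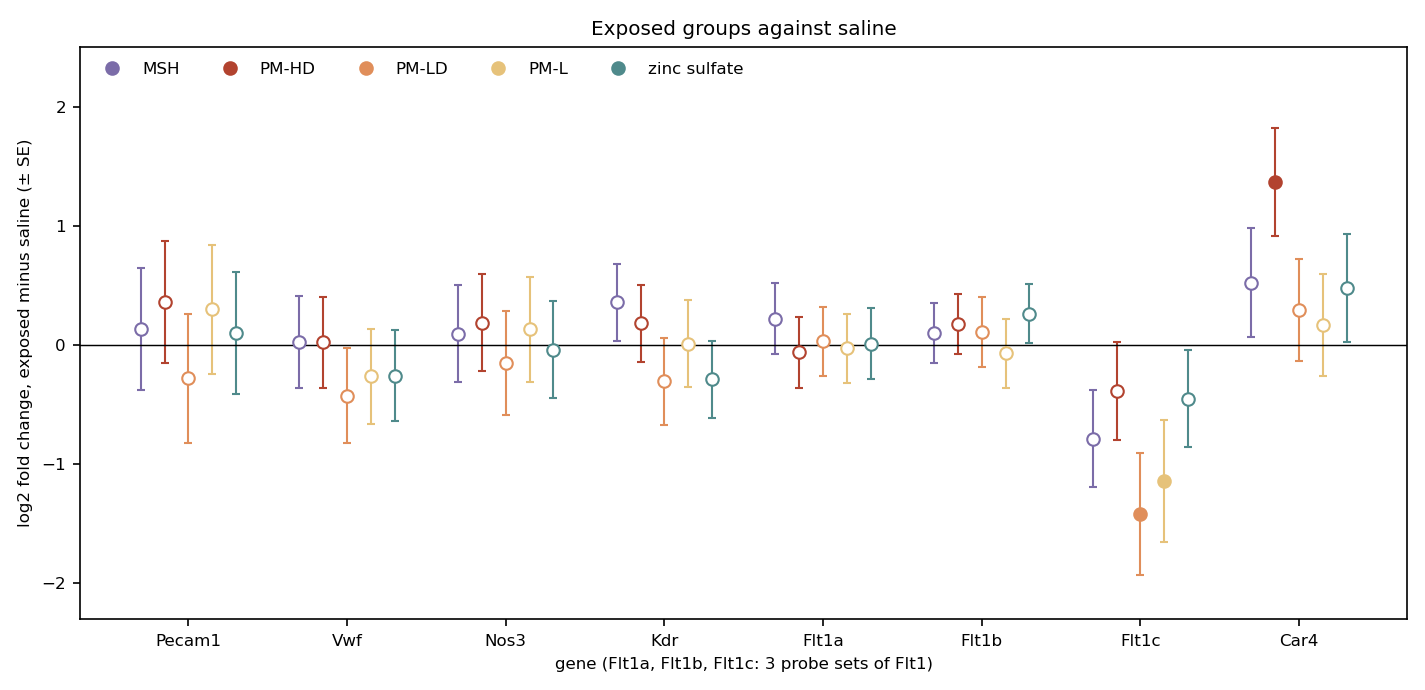
log2 fold change of each exposed group against saline (points, with limma's standard error as bars) for the 8 member probe sets; filled points passed unadjusted p under 0.05 and the fold limits. The 3 filled points are Car4 with PM-HD (1.37) and Flt1c with PM-LD (−1.42) and PM-L (−1.14).

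The spread within groups put these differences in proportion. The SD of the log2 signal within groups was 0.819 for Pecam1, larger than that of 98.6% of the 7933 probe sets brighter than the median, and 0.769 for Flt1c. It was 0.659 for Nos3, 0.638 for Car4, 0.592 for Vwf, 0.542 for Kdr, and 0.425 and 0.426 for Flt1a and Flt1b, against a median of 0.299 over those bright probe sets. The share of variance between groups was 38.6% for Car4, 33.9% for Flt1c, and 20.3% for Kdr, against a median of 18.9% over all probe sets. It was 10.3% for Vwf, 8.0% for Pecam1, 5.6% and 8.1% for Flt1a and Flt1b, and 3.8% for Nos3, so that for these genes nearly all of the variation lay between hearts of the same group.

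The members rose and fell together from heart to heart. Among Pecam1, Vwf, Nos3, Kdr, and Flt1a, the 10 pairs correlated over the 24 arrays with Pearson's r between 0.786 (Pecam1 and Flt1) and 0.927 (Pecam1 and Nos3), and with Spearman's rho between 0.783 and 0.945. The highest adjusted permutation p over the 15 pairs of 6 genes was 3e-05 for these 10, where 1e-05 is the smallest unadjusted p that the 100000 permutations can give. Without the 2 arrays farthest from the median of the gene of each pair that comes first in this order, r was between 0.746 and 0.904. After subtraction of group means it was between 0.843 and 0.961. Car4 followed less closely, with r between 0.473 (Flt1) and 0.631 (Pecam1), rho between 0.527 and 0.667, and adjusted permutation p up to 0.0193. Without the 2 arrays farthest from the median of the other gene of each pair, its r was between 0.411 and 0.604. These arrays were not chosen by the values of Car4 itself. After subtraction of group means its r was between 0.628 and 0.717.

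Some other genes followed each member more closely than any other member did. For Pecam1, Nos3 ranked 64th, Vwf 157th, Kdr 199th, Flt1a 835th, and Car4 1624th by r among 7932 other bright probe sets. The median r of bright probe sets with Pecam1 was 0.058. For the other members, Car4 ranked between 1885th (Kdr) and 2097th (Flt1a). The genes nearest to Pecam1 were Sparc (r = 0.963), Bcam (0.962), and Cav1 (0.959), of which Cav1 encodes the coat protein of caveolae, abundant in endothelium. For Vwf they were Rnpep (0.962), Actn4 (0.956), and Tcf4 (0.950), for Nos3 Anxa3 (0.967), Acsl5 (0.960), and Rpl27a (0.956), for Kdr Tmsb4x (0.970), Ltbp4 (0.970), and Elk3 (0.966), and for Flt1a Sptbn1 (0.936), Acbd3 (0.919), and Gpatch8 (0.90). Car4 had its own neighbours: Gpx7 (0.801), Slc28a2 (0.780), which encodes a nucleoside transporter, and Als2cl (0.760). Podxl, which encodes podocalyxin of the vessel lumen, was nearest to the mean of all 6 members (0.979). All of these are over 24 arrays.

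**Figure D3:**
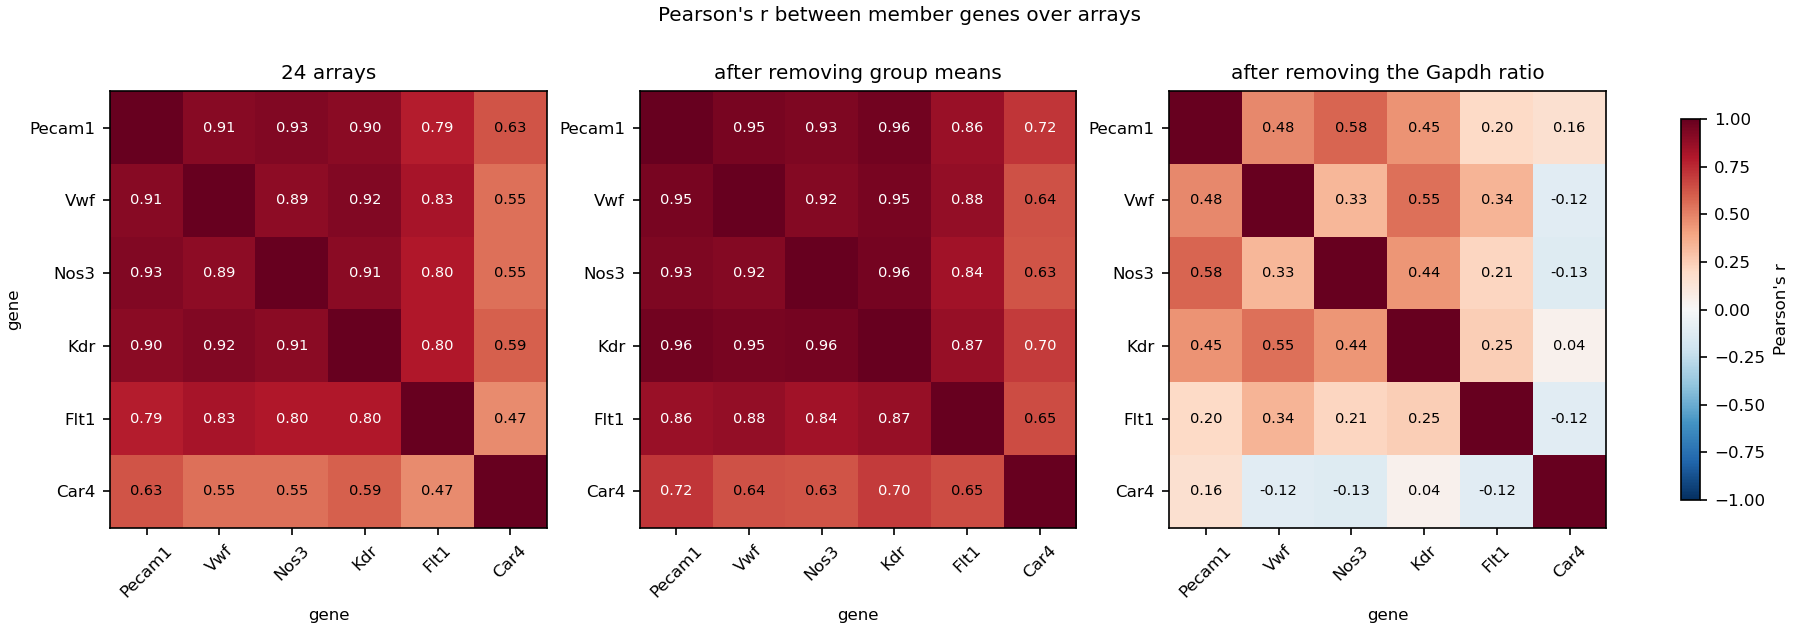
Pearson's r between the 6 member genes (brightest probe set of each) over 24 arrays, after subtraction of group means, and after removal of the log2 Gapdh 3′ to 5′ ratio. The first 5 genes form a block of r from 0.786 to 0.927 with Car4 lower, and after the Gapdh ratio is removed the same block lies between 0.197 and 0.584.

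The shared variation ran with the Gapdh ratio. The correlation with the log2 Gapdh ratio over the 24 arrays was r = 0.917 for Nos3, 0.914 for Vwf, 0.908 for Kdr, and 0.90 for Pecam1 (rho = 0.912, 0.939, 0.940, and 0.940; permutation p = 1e-05 each, adjusted p = 2.4e-05 for r over the 24 relations of 8 probe sets with 3 array measures). It was 0.818, 0.821, and 0.636 for the 3 Flt1 probe sets and 0.641 for Car4 (rho = 0.894, 0.846, 0.672, and 0.677; highest adjusted permutation p = 0.0012). Without the 2 arrays farthest from the median of the log2 ratio, the 8 values of r were between 0.590 and 0.926, and within groups between 0.712 and 0.928. Of all probe sets, 98.4% or more had a lower r than Nos3, Vwf, Kdr, and Pecam1 had, 95.4% or more than Flt1a and Flt1b, and 88.3% or more than Flt1c and Car4. The 8 probe sets also correlated with the median signal of the array before normalization, with r between 0.516 (Flt1c) and 0.926 (Kdr; rho 0.594 to 0.924, highest adjusted permutation p = 0.0139), and with the atrial mean between −0.303 and −0.507 (rho −0.213 to −0.426). Without the 2 arrays farthest from the median of the atrial mean, the relations with it were between −0.064 and −0.329.

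With the log2 Gapdh ratio removed from each gene, r among the first 5 genes was between 0.197 (Pecam1 and Flt1) and 0.584 (Pecam1 and Nos3), and r with Car4 was between −0.131 (Nos3) and 0.163 (Pecam1). The zinc sulfate group shows the pattern in single hearts. Replicate 3, whose ratio was 5.57, had the highest signal of Pecam1, Vwf, Nos3, and Kdr of all 24 hearts, and the other 3 zinc sulfate hearts had ratios between 1.42 and 1.52. PM-L replicate 2, with the lowest ratio of all (1.11), had the lowest Vwf, Nos3, and Kdr of all. MSH hearts had ratios between 2.02 and 3.31, and the mean of the 5 genes varied 1.18-fold among them, against 2.65-fold in PM-HD, 2.57-fold in PM-LD, 2.60-fold in PM-L, 3.44-fold in zinc sulfate, and 1.90-fold in saline hearts. The part of the Gapdh ratio in these signals was not tested.

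**Figure D4:**
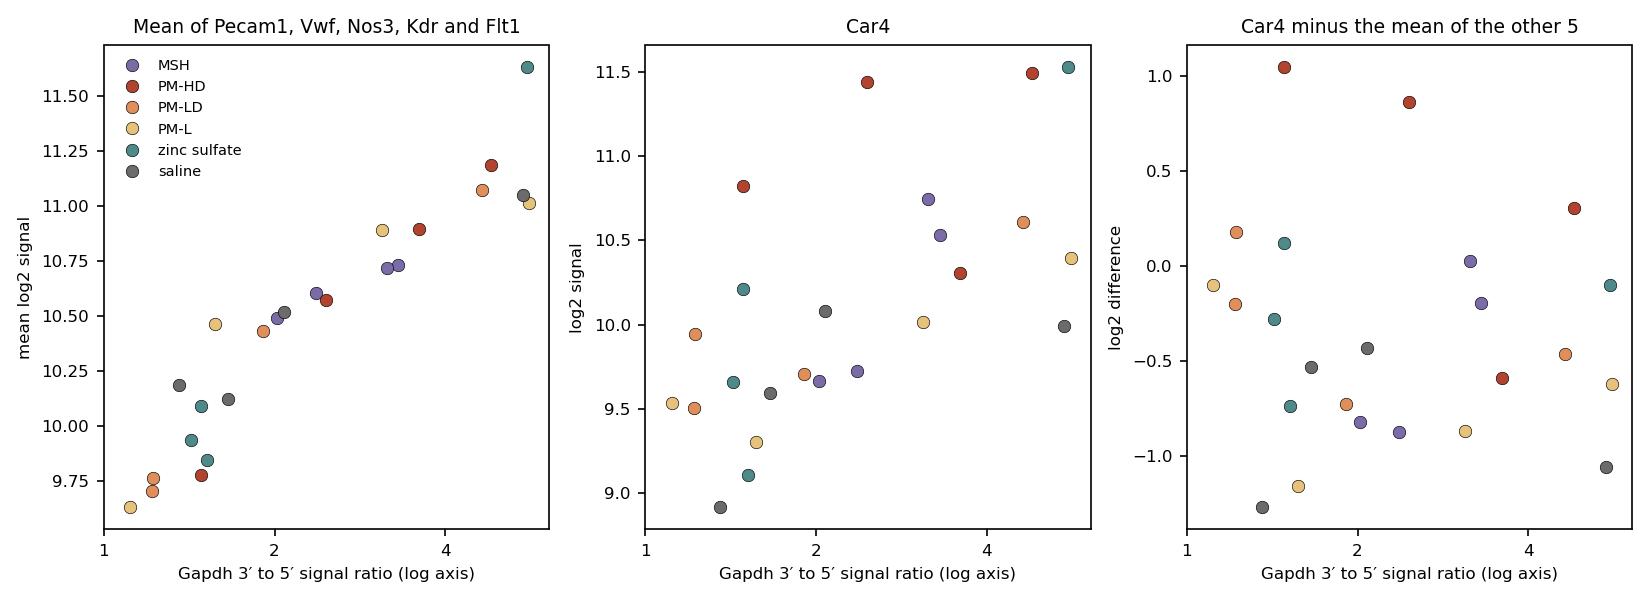
Mean log2 signal of Pecam1, Vwf, Nos3, Kdr, and Flt1 (left), log2 signal of Car4 (middle), and their difference (right) against the Gapdh 3′ to 5′ ratio (log axis), 1 point per heart, colored by group. Hearts with a higher ratio have a higher 5-gene mean, and the 3 highest differences of Car4 from that mean are PM-HD hearts (0.306, 0.865, and 1.045).

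Car4 was therefore also expressed as its difference from the mean of the other 5 genes in the same heart, in log2 units. The difference averaged 0.41 ± 0.73 in PM-HD (−0.59 to 1.05), −0.25 ± 0.37 in zinc sulfate, −0.30 ± 0.39 in PM-LD, −0.47 ± 0.45 in MSH, −0.69 ± 0.45 in PM-L, and −0.82 ± 0.41 in saline hearts (−1.27 to −0.43; SD, n = 4 each). PM-HD was highest and saline lowest, with 3 of 4 PM-HD hearts above all saline hearts, and PM-HD replicate 3 within the saline range. Zinc sulfate replicates 1, 3, and 4 (0.12, −0.10, and −0.28) were also above all saline hearts. So were MSH replicates 1 and 4 (−0.20 and 0.03), PM-LD replicates 2 and 4 (−0.20 and 0.18), and PM-L replicate 2 (−0.10). The mean of the 5 genes itself was 10.61 ± 0.61 in PM-HD and 10.47 ± 0.43 in saline. These values describe the hearts, and no test was run on them.

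Genes of the same cells and pathways were counted against saline, where between 3.57% (MSH) and 4.46% (zinc sulfate) of all probe sets were called. With 4 to 29 genes in a list, the counts of 0 to 2 found here are no result about a list. Of 29 other endothelial markers measured, 1 was lower with PM-HD (median fold change of the list 0.12, against 0.0031 over all probe sets): Calcrl, which encodes the receptor for calcitonin gene-related peptide and adrenomedullin, at 108 ± 16.5 in PM-HD against 198 ± 59.6 in saline (fold change −0.77, standard error 0.27, limma adjusted p = 0.999, no overlap, past the thresholds in 19 of 19 alternatives). With MSH 1 was lower, the adhesion molecule Icam1 (72.3 ± 32.0 in MSH against 150.3 ± 49.2 in saline, fold change −1.02, overlapping, past in 12 of 19 alternatives), and with PM-LD, PM-L, and zinc sulfate 0 passed, with medians of −0.15, 0.07, and −0.09. Both Calcrl and Icam1 were dim. Of 12 genes for fatty acid and water transport across capillaries, among which Cd36 and Fabp4 take up and carry fatty acids, 0 passed in any of the 5 comparisons with saline, with medians between −0.04 and 0.20.

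Among 18 other genes of VEGF and angiopoietin signaling, 1 was higher with PM-HD and 1 with MSH, 1 was higher and 1 lower with zinc sulfate, and 0 passed with PM-LD and PM-L. Flt4, the VEGF receptor of lymphatic endothelium, was dim, at 147 ± 37.4 in PM-HD and 70.4 ± 20.4 in saline (fold change 0.90, standard error 0.30, limma adjusted p = 0.999, no overlap, past in 18 of 19 alternatives). It was the 1 gene called of 4 lymphatic markers in that comparison. Nrp2, a VEGF co-receptor, was also dim, at 90.9 ± 36.8 in zinc sulfate and 77.0 ± 25.4 in MSH against 37.7 ± 22.99 in saline (fold changes 1.12 and 0.76). Vegfd, a ligand, was dim as well, at 91.3 ± 38.6 in zinc sulfate and 176 ± 52.8 in saline (fold change −0.78). For Nrp2 and Vegfd these groups overlapped with saline. Nrp2 passed in 18 of 18 alternatives with zinc sulfate and in 12 of 18 with MSH, and Vegfd in 12 of 19.

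In the nitric oxide pathway, 1 of 17 measured genes was lower with MSH, with PM-HD, and with zinc sulfate: Ddah1, the enzyme that clears an endogenous inhibitor of nitric oxide synthases. Its signal was 342 ± 217 (MSH), 314 ± 78.7 (PM-HD), and 285 ± 64.2 (zinc sulfate), against 553 ± 180 in saline (fold changes −0.84, −0.78, and −0.82, standard error 0.36 each, all overlapping, past in 11, 8, and 12 of 19 alternatives). The 3 comparisons share the saline hearts. With PM-L, Nos2, the inducible synthase, was dim, at 44.9 ± 8.32 against 187 ± 204 in saline (fold change −1.23, overlapping, past in 6 of 17 alternatives). With PM-LD 0 of 17 passed. Of 11 genes of hemostasis at the vessel wall, 1 passed in the 5 comparisons with saline, the very dim Proc with zinc sulfate (8.13 ± 4.01 against 22 ± 10.8 in saline, past in 13 of 18 alternatives). Of 14 other carbonic anhydrases and bicarbonate transporters, 1 passed against saline: Car8, a family member without enzymatic activity, was lower with PM-LD (fold change −0.70, standard error 0.31, no overlap, past in 12 of 18 alternatives). With PM-HD against saline, where Car4 was called, 0 of these 14 passed, and their fold changes lay between −0.47 and 0.17. With PM-HD against PM-LD, where Car4 was also called, 1 of 14 passed: Car8, named here after its values were seen, was higher (fold change 0.86, standard error 0.31, no overlap). The share of all probe sets without overlap was not counted for PM-LD against saline or for PM-HD against PM-LD.

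Over the 24 hearts, the mean of Pecam1, Vwf, Nos3, Kdr, and Flt1 moved with the mean of the other endothelial markers (r = 0.972, rho = 0.971), of the capillary transport genes (0.915 and 0.90), of VEGF signaling (0.905 and 0.888), and of hemostasis (0.853 and 0.870; permutation p = 1e-05 for each r, adjusted p = 4e-05 over 16 lists). The correlation was 0.792 with smooth muscle and pericyte markers, 0.696 with fibroblast markers, and 0.678 with the nitric oxide pathway (rho = 0.789, 0.832, and 0.689; adjusted permutation p up to 0.00066). It was 0.551 with red cell, 0.544 with lymphatic, and 0.482 with platelet markers (rho = 0.518, 0.530, and 0.657; adjusted permutation p up to 0.027). No relation passed with leukocyte markers (0.254), other carbonic anhydrases (0.114), ventricular myocyte markers (0.027), adipocyte markers (0.007), lung epithelial markers (−0.099), or atrial markers (−0.392), with rho of 0.306, 0.276, 0.050, −0.108, −0.037, and −0.264 and adjusted permutation p of 0.084 or more. Without the 2 farthest arrays the 10 relations that passed had r between 0.451 and 0.959. All 16 lists share arrays, RNA, and normalization with the members, and their part in these correlations was not tested.

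Markers of other cell types were counted in the same comparisons, and counts this small are no result about a cell type. With PM-L, where 4.25% of all probe sets were called, 2 of 12 smooth muscle and pericyte markers were higher (Pdgfrb, fold change 0.46, and Kcnj8, 0.45). So were 1 of 4 atrial markers (Nppa, 1.41) and 1 of 4 platelet markers (Ppbp, 0.51). With PM-HD (3.67% of all probe sets called), 1 of 7 leukocyte markers was lower (Itgam, −0.47), as it was with MSH (−0.46, 3.57% of all called). With PM-LD (4.11% of all called) 1 was lower (Cd3e, −1.08). The limma adjusted p of these genes was 0.999 or more. With zinc sulfate 0 of these passed. No fibroblast, ventricular myocyte, red cell, adipocyte, or lung epithelial marker passed in any of the 5 comparisons with saline. Saline replicate 1 stood apart in the reference group of all of them. Its summed lung epithelial signal was 1751.7, against 214.9 to 324.8 in the other saline hearts and at most 637.7 in any exposed heart. The same heart had the lowest ventricular myocyte sum of all arrays (116052.4). The 4 atrial markers had a median fold change of 1.30 with PM-L, 0.95 with MSH, 0.47 with PM-LD, 0.33 with zinc sulfate, and −0.33 with PM-HD. The part of these cells in the members' signals was not tested.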

How the data were processed

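The authors extracted signal intensity with MAS5 and scaled each array to a common trimmed mean, and the deposited table holds these linear intensities. The study's tests were run on robust multiarray (RMA) values, so MAS5 signals replace them here. After removal of 57 control probe sets, log2 (signal + 16) was quantile normalized over 24 arrays and fitted with limma 3.58.1 (R 4.3.3): 16 arrays for comparisons among MSH, PM-HD, zinc sulfate, and saline, and 24 arrays for those with PM-LD or PM-L. Adjusted p is Benjamini-Hochberg over 15866 probe sets. Overlap was judged on unnormalized signals. Exact permutation tests used the 70 arrangements of 4 against 4. The number of arrays limits precision, and p-values set a difference or a correlation against the variation between arrays, with 1 rat per array. Of the tested probe sets, 12783 carry 1 symbol, 312 several, and 2771 none, and 12748 matched a RefSeq gene (GRCr8). A gene of a list was read by its brightest probe set.

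The members and lists were chosen with earlier results of these data known. Named genes were all members, up to 3 genes past the thresholds per list and comparison with saline, and the 3 genes nearest to each member by r. The limma steps were tested on simulated data. Alternatives were pseudocounts of 1 and 64, median centering, removal of dim probe sets, a prior that is robust and follows intensity, other sets of arrays in the fit, a replicate block, and leaving out each array. The Gapdh ratio as a covariate, its removal from correlations, and leaving out arrays past a ratio of 3 or past an atrial mean of 11 were chosen after seeing the data.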

Additional observations from a re-analysis of the deposited data

Results flagged for a closer look

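In 8 of 48 sets of 4 hearts (8 probe sets in 6 groups), 1 heart stood far from the other 3. A rate of 1 in 20 would give 2.4, but it holds for normally distributed values. The probe sets were read in the same hearts and correlated, so the 48 sets were not independent and the counts cannot be compared as such. In 7 of these the heart was zinc sulfate replicate 3, which also had a Gapdh ratio of 5.57 against 1.42 to 1.52 in the other zinc sulfate hearts. Its signals were 3426.6 for Pecam1 (others 625.0 to 905.1), 2729.6 for Vwf (980.3 to 1111.7), 2522.5 for Nos3 (559.8 to 747.6), and 8033.4 for Kdr (2909.5 to 3739.5). For Flt1 they were 1173.3 with Flt1a (489.9 to 584.2), 779.0 with Flt1b (379.1 to 429.2), and 1000.6 with Flt1c (215.3 to 271.5). The eighth was PM-LD replicate 3, with 1066.7 for Flt1a (532.0 to 609.3) and a Gapdh ratio of 4.64. The part of the Gapdh ratio in these values was not tested.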

How the results depend on the processing

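Over 1192 alternative values of the 64 member fold changes, none had an adjusted p under 0.05, and the lowest was 0.167. For MSH against saline, 0 member probe sets were called, and 1 was called with only the 2 groups compared, with the replicate block, with the Gapdh covariate, and without arrays of a Gapdh ratio above 3. For PM-HD against saline, 1 was called, and 2 with the Gapdh covariate or without those arrays. For PM-LD and PM-L against saline, 1 was called, 0 to 1 when each array was left out in turn, and 0 for PM-L without hearts of a high atrial mean. For zinc sulfate against saline, 0 were called, 0 to 2 leaving out each array, and 2 without arrays of a Gapdh ratio above 3. For zinc sulfate against MSH, 0 were called, 1 with the replicate block, 0 to 1 leaving out each array, 2 with the Gapdh covariate, and 2 without the arrays of a high Gapdh ratio. For PM-HD against zinc sulfate, 0 were called, 1 with all 24 arrays in the fit, 0 to 4 leaving out each array, and 2 without the arrays of a high Gapdh ratio. For PM-HD against PM-LD, 1 was called, 2 with median centering, with the intensity trend, with the replicate block, or without the arrays of a high Gapdh ratio, 0 to 2 leaving out each array, and 0 without hearts of a high atrial mean. The replicate block changed no other count of member calls. Calls over the 15866 tested probe sets moved with the setting too. With the Gapdh covariate, 788 were called for PM-HD against saline (583 in the main fit) and 1208 for zinc sulfate against MSH (1056). For MSH against saline (567) they were 738 with that covariate, 807 without arrays of a high ratio, 696 with only the 2 groups, and 579 with the replicate block. The block gave 1102 for zinc sulfate against MSH and 927 for PM-HD against PM-LD (740). Without the arrays of a high Gapdh ratio, 2094 were called for zinc sulfate against MSH (1056 with them), and 1105 for zinc sulfate against saline (707). For PM-HD they were then 1129 against zinc sulfate (874), 1050 against PM-LD (740), and 712 against saline (583). PM-HD against zinc sulfate had 713 with all 24 arrays in the fit, and 2320 without zinc sulfate replicate 3. Replicate numbers are shared between groups, but the deviations of same-numbered hearts correlated at −0.26 to 0.308, so the numbers were not taken as pairs. The cause was not tested.

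Several fold changes that had not passed changed sign and still did not pass. With the Gapdh covariate these were Kdr in PM-HD (−0.01) and PM-L (−0.027) against saline, Car4 in zinc sulfate against MSH (0.18), and Flt1c in PM-HD against zinc sulfate (−0.24). Without the arrays of a high Gapdh ratio they were Kdr (−0.33) and Car4 (−0.11) in PM-L against saline and Flt1c in PM-HD against zinc sulfate (−0.0092). Without hearts of a high atrial mean they were Car4 in PM-L against saline (−0.041) and in zinc sulfate against MSH (0.42), and Flt1c in PM-HD against zinc sulfate (−0.13). With median centering they were Kdr in PM-L against saline (−0.065) and Car4 in zinc sulfate against MSH (0.077). Leaving out each array gave −0.17 to 0.31 for Kdr and −0.077 to 0.34 for Car4 in PM-L against saline, −0.13 to 0.53 for Flt1c and −0.51 to 0.30 for Car4 in zinc sulfate against MSH, and −0.14 to 0.53 for Flt1c in PM-HD against zinc sulfate. Of the 40 fold changes of the other 5 probe sets, 32 changed sign under some alternative, and 3 of their 745 alternative values passed the thresholds. The 12 fold changes of genes in the vessel lists kept their direction throughout, and 69 of 222 alternative values did not pass. Of the 7 fold changes of markers of other cells, 62 of 125 alternative values did not pass, and Pdgfrb with PM-L turned to −0.037 without the arrays of a high Gapdh ratio. The median r of the 15 gene pairs was 0.803, and 0.249 after removal of the Gapdh ratio, with Car4 against Vwf (−0.12), Nos3 (−0.13), and Flt1 (−0.12) below 0.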
